A study of Mus musculus with 5 samples.

Results

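Fluid in the uterine lumen is set by channels in the epithelium that lines it, and 10 genes that encode such channels were followed in the uterus after exposure to seminal plasma (SP) from young or aged males. They are Cftr, which encodes an anion channel, Scnn1a, Scnn1b and Scnn1g, which encode the 3 chains of the epithelial sodium channel (ENaC), and the aquaporin genes Aqp1, Aqp3, Aqp4, Aqp5, Aqp8 and Aqp9. The genes were taken by name from the 28666 genes of the count table, and all 10 were listed. The aged-SP group held 2 libraries (replicates 1 and 4), and the young-SP group held 3 (replicates 1, 2 and 4). All females were ICR mice of 6 to 8 weeks that had been caged with a vasectomized C57BL/6 male, aged in one group and young in the other, so that every uterus had received an ejaculate without sperm and held no embryo. The labels place the collection 3.5 days after caging, whereas the methods of the study give a somewhat earlier time, counted in days post coitum. The comparison asks whether the age of the male that gave the seminal plasma made a difference to the uterus before implantation. RNA came from the whole uterus, so that epithelium, stroma, muscle, vessels and blood were read together. Whether each library was 1 female is not given in the sources used here, and p-values measure the spread between these libraries.

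CFTR lets chloride and bicarbonate leave epithelial cells at their luminal side, and water follows. ENaC takes sodium back from the lumen, and water then follows in the other direction, so that the channels act as opposing arms of secretion and absorption. In rodents the lumen is filled with fluid under estrogen and is emptied and closed around the blastocyst under progesterone. Aquaporins are water pores that let water move along these gradients, and some of them (Aqp3 and Aqp9) also pass glycerol and other small solutes.

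The total count per library lay between 15071914 and 16728601. Young-SP replicate 1 stood apart from the other libraries of its group, and over the 17013 genes tested its level lay nearer the aged-SP mean than the mean of young-SP replicates 2 and 4 for 7452 genes (43.8%). Among the channels this was the case for Cftr, Scnn1g and Aqp5, and results that rest on this library are given with and without it. Markers of vagina and cervix were nearly silent, with 8 genes summing to between 2.24 and 5.14 CPM (counts scaled to the same library total), and the vaginal keratin gene Krt6a, singled out after its values were seen, had no count in 4 of the 5 libraries. The 5 oviduct genes summed to 112 and 151 CPM in the aged-SP group. In young-SP replicates 1, 2 and 4 they summed to 97.1, 58.8 and 259 CPM. Ovgp1, the most abundant of them, reached 233 CPM in young-SP replicate 4. The 4 ovary genes found summed to between 21.5 and 70.9 CPM. The part of such adjoining tissue in the levels below was not tested. Epithelial markers were abundant, with 14 of 14 genes measured and a sum of 1799 and 1808 CPM in the aged-SP group. In young-SP replicates 1, 2 and 4 the sum was 2234, 1112 and 1365 CPM.

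Sequences upstream of the start site are shown for Cftr, the anion channel gene, for Aqp8, which had the largest fold change of the tested channel genes, and for Aqp1, the most abundant of them. They are RefSeq sequences on GRCm38.p6, read 5′ to 3′ on the strand of the gene up to the base before the start site. Capitals mark the GC box GGGCGG, the motif bound by Sp1-type factors, where capitals that run on hold overlapping boxes.
Cftr, chr6:18170437-18170686, plus strand: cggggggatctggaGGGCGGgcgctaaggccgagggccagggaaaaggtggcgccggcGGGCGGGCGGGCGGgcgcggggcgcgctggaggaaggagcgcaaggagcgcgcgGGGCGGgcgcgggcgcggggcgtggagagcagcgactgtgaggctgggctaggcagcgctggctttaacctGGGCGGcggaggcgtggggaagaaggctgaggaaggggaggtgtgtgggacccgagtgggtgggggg
Aqp8, chr7:123462044-123462290, plus strand: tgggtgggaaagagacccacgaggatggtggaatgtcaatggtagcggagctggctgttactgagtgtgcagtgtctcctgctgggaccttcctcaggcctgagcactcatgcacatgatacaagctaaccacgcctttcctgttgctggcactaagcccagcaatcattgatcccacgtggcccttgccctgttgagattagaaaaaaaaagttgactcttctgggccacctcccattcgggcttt
Aqp1, chr6:55336049-55336298, plus strand: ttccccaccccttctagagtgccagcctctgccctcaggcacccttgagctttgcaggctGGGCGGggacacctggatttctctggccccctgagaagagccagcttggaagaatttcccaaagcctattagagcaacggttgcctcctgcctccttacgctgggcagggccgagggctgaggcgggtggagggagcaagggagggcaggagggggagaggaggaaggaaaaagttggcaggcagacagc
The Cftr sequence held 6 GC boxes, counting those that overlap, and 76.4% of its bases were G or C. The Aqp1 sequence held 1 GC box at 62.0% G or C, and the Aqp8 sequence held 0 at 52.4%. With both strands searched over 250 bases, 32.7% of 32851 mouse promoters had at least 1 GC box. So did 6 of the 8 channel genes searched (Cftr, Aqp1, Aqp3, Aqp5, Scnn1b and Scnn1g). The TATA box TATAAA was found only in Aqp3 (12.4% of all promoters), and the estrogen half-site AGGTCA only in Scnn1b (14%). The progesterone half-site AGAACA occurred only in Aqp9 (16.1%), and the cAMP response element TGACGTCA in 0 of the 8 (1.55%). For Aqp5 only the first 71 of the 250 bases lay before the gene as counted. For Aqp9 all bases searched lay inside the gene as counted. No entry was matched for Scnn1a, and Aqp4 was left out of the search.

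Per gene length, as FPKM, the channel genes spanned a wide range of levels. Aqp1 was highest with a mean of 195 FPKM ± 48.9 (SD, n = 5 libraries). It was followed by Aqp5 (12.4 ± 12.8), Scnn1b (8.33 ± 3.61), Aqp8 (5.80 ± 12), Cftr (3.00 ± 2.55) and Scnn1a (2.69 ± 0.691). Aqp9, Scnn1g, Aqp3 and Aqp4 came last, with means of 0.512, 0.300, 0.269 and 0.198 FPKM. The ranges over the 5 libraries were separate between Aqp1 and Aqp5 and between Scnn1a and Aqp9, and every other pair of neighbours in this order overlapped.

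**Figure D1:**
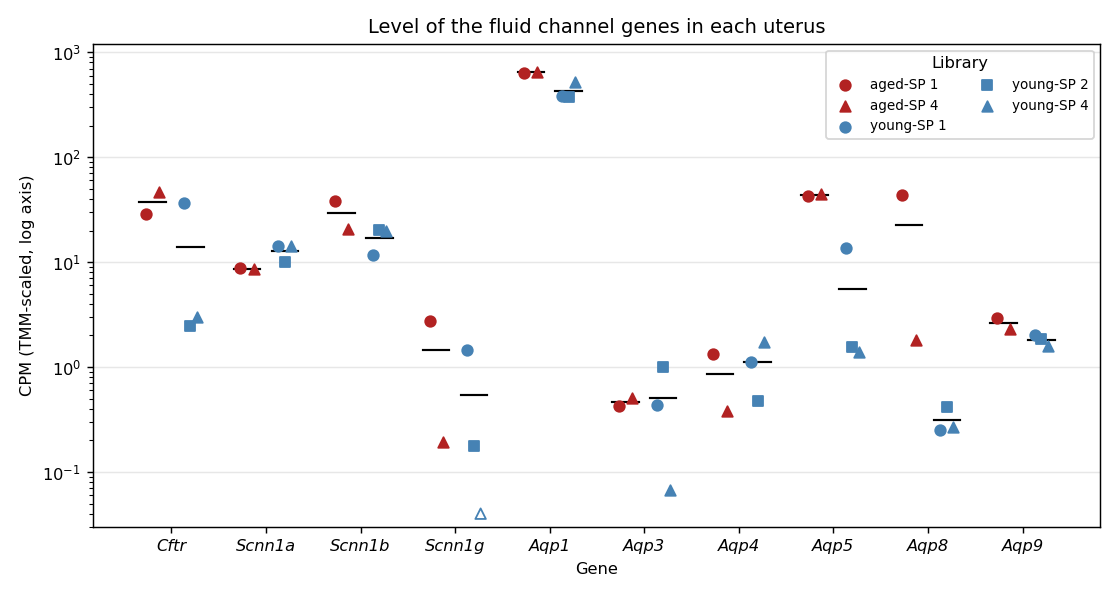
CPM of the 10 channel genes in each library on a log axis, with 1 point per library and a black line at each group's mean, aged-SP replicates 1 and 4 beside young-SP replicates 1, 2 and 4. The open triangle at the bottom is Scnn1g in young-SP replicate 4, which had 0 counts, and Aqp8 lies far higher in aged-SP replicate 1 (43.6 CPM) than in any other library.

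Fold changes below are log2 values, positive where the aged-SP group was higher. A gene was called at an adjusted p under 0.05 (Benjamini-Hochberg over all 17013 tested genes) and a fold change over 2. Of the 10 channel genes, 9 passed the filter on low counts (about 10 counts in at least 2 libraries), and the test with edgeR called 0 of them. Among all tested genes edgeR called 0.0823% as higher and 0.0647% as lower. DESeq2, which called 1.69% of its genes as higher and 1.92% as lower, called only Aqp8, as higher in the aged-SP group. An unadjusted p under 0.05 in edgeR was reached by Aqp1, Aqp5 and Aqp8, which were higher, and by Scnn1a, which was lower, beside 19.0% of all tested genes. The groups did not overlap, with the aged-SP group higher, for Aqp1, Aqp5, Aqp8, Aqp9 and Scnn1b, beside 19.5% of tested genes. They did not overlap, with the aged-SP group lower, for Scnn1a, beside 19.3%. The median fold change of the 9 genes was 0.77 on the log2 scale, and that of all tested genes was 0.0072. Aqp8 passed the filter only through its counts in the aged-SP group, and Scnn1g only through aged-SP replicate 1 and young-SP replicate 1, so that these counts and the median are descriptions.

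**Figure D2:**
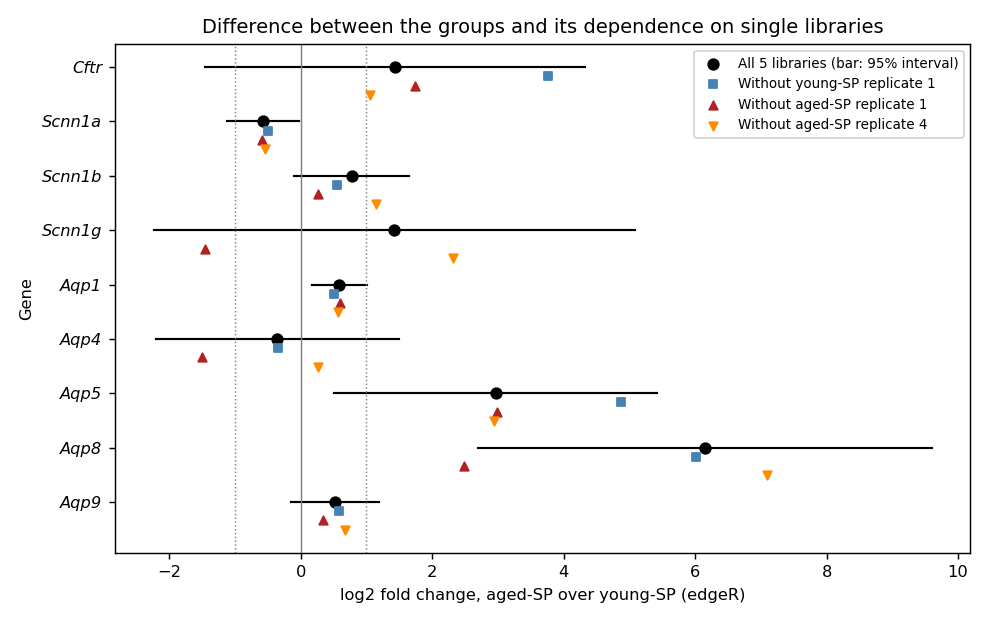
Log2 fold change (aged-SP over young-SP) for the 9 tested channel genes from edgeR with 95% confidence intervals, and, as coloured symbols, the value without young-SP replicate 1, aged-SP replicate 1 or aged-SP replicate 4. Dotted lines mark a fold change of 2. Aqp8 (6.15) and Aqp5 (2.97) lie farthest to the higher side, and Scnn1g and Aqp4 have values on both sides of 0.

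Cftr, the route of anion secretion, was high in 3 libraries and low in the other two. It was measured at 28.8 and 46.6 CPM in aged-SP replicates 1 and 4. In the young-SP group it was at 36.3 CPM in replicate 1, 2.48 in replicate 2 and 3.00 in replicate 4. The groups overlapped, since young-SP replicate 1 lay between both aged-SP libraries, at 13.2 times the mean of the other two of its group. The fold change was 1.44 on the log2 scale (SE 1.16, 95% interval −1.46 to 4.33), with an adjusted p of 0.539 in edgeR. Without young-SP replicate 1 the fold change was 3.77 and the adjusted p 0.0135, which passed the call, in a setting where 578 of all tested genes were called against 25 with all libraries. Cftr lies at chr6:18170687-18322768 on GRCm38 and overlaps an antisense gene, Gm15592, over 1.66% of its exon bases, from which its reads could not be told apart without strand.

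Scnn1a, which encodes the alpha chain that ENaC needs to form a conducting channel, lay lower in both aged-SP libraries. Its level was 8.77 and 8.51 CPM in the aged-SP libraries and 14.2, 9.93 and 14.4 CPM in young-SP replicates 1, 2 and 4. Every aged-SP library lay under every young-SP library, and the lowest of the young-SP group came close to the aged-SP values. The fold change was −0.57 (SE 0.22, 95% interval −1.12 to −0.02), with an unadjusted p of 0.0433 and an adjusted p of 0.250 in edgeR, so that the difference did not pass the call.

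Scnn1b, the beta chain, was the most abundant of the ENaC chains per length in every library. It stood at 38.0 and 20.5 CPM in aged-SP replicates 1 and 4, and at 11.6, 20.0 and 19.8 CPM in the young-SP libraries. The groups did not overlap, but aged-SP replicate 4 was hardly above 2 of the young-SP libraries. The fold change was 0.77 (SE 0.35), with an adjusted p of 0.311 in edgeR, and it was 0.26 without aged-SP replicate 1.

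Scnn1g, the gamma chain, was close to the limit of detection. It was read 45 and 3 times in aged-SP replicates 1 and 4, and 23, 3 and 0 times in young-SP replicates 1, 2 and 4. The count of 0 allows a level of up to 0.200 CPM (3 counts). The gene was thus seen clearly in 1 library of each group, and the fold change of 1.42 (SE 1.47, adjusted p of 0.635 in edgeR) turned to −1.46 without aged-SP replicate 1. Scnn1g and Scnn1b lie on chromosome 7 within 96.6 kb of each other.

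Added per length, the 3 chains came to 17.3 and 9.89 FPKM in the aged-SP group and to 8.25, 10.3 and 10.9 FPKM in the young-SP group, so that the groups overlapped. The make-up of the sum differed more than its size. Scnn1a gave 12.2% and 20.8% of it in the aged-SP libraries and 41.3%, 23.9% and 31.6% in the young-SP libraries. The ratio of Scnn1b to Scnn1a was 6.80 and 3.79 in the aged-SP group against 1.28, 3.17 and 2.16 in the young-SP group. Its groups could not overlap, since Scnn1b lay higher and Scnn1a lower in both aged-SP libraries, and this ratio was not tested. Between secretion and absorption, the ratio of Cftr to the ENaC sum was 0.213 and 0.605 in the aged-SP libraries. In the young-SP group it was 0.562 in replicate 1 but 0.0317 and 0.0352 in replicates 2 and 4, which follows the split in Cftr rather than the groups.

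**Figure D3:**
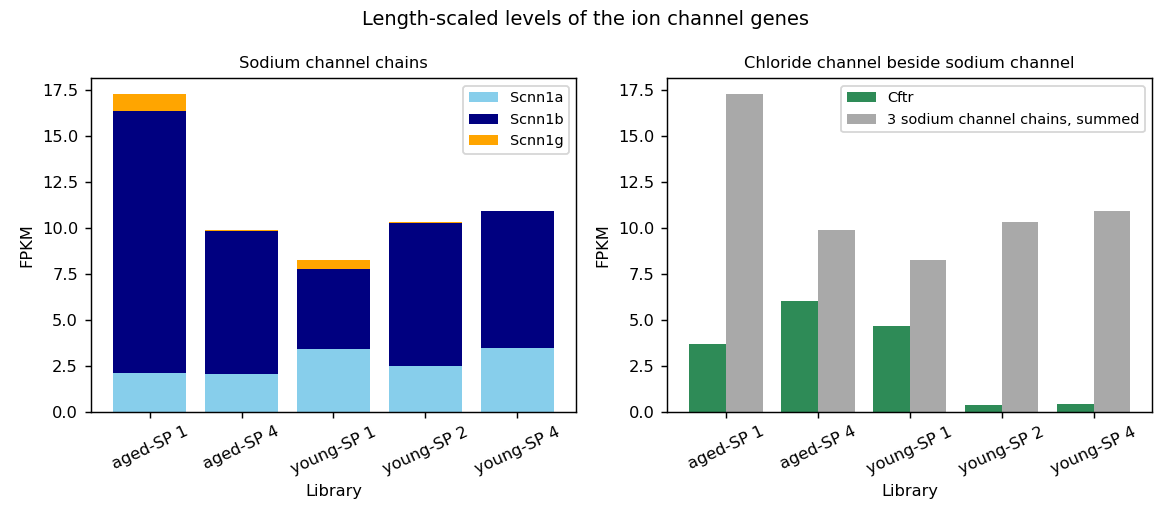
FPKM of Cftr and of the 3 ENaC chains in each library, with the chains stacked as bars in the left panel and their sum beside Cftr in the right panel, all from 0. Cftr is high in both aged-SP libraries and in young-SP replicate 1, and the ENaC sum is highest in aged-SP replicate 1 (17.3 FPKM), where Scnn1b makes up 82.6% of it.

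Aqp1, the water pore of endothelium and red blood cells, lay higher in both aged-SP libraries. It stood at 636 and 651 CPM in the aged-SP libraries and at 386, 375 and 524 CPM in young-SP replicates 1, 2 and 4. Both aged-SP libraries lay close together and above the whole young-SP group. The means were 644 ± 10.9 (SD, n = 2) and 428 ± 83.1 CPM (SD, n = 3), and the fold change was 0.59 (SE 0.17, 95% interval 0.17 to 1.01). The unadjusted p was 0.0146 and the adjusted p 0.166 in edgeR. DESeq2 gave an adjusted p of 0.0476, with a fold change under the limit for a call. The summed markers of endothelium and of red blood cells overlapped between the groups. The part of these or other cells in the level of Aqp1 was not tested. The 8 endothelial genes summed to 677 and 714 CPM in the aged-SP group and to 542, 884 and 680 CPM in the young-SP group, with an adjusted p of 0.513 for Pecam1 in edgeR. Red blood cell genes (6 of 7 listed) summed to 98.0 and 182 CPM against 219, 83.4 and 92.3 CPM. In whole tissue, fewer cells of a type and less RNA per cell cannot be told apart, here and for every gene below.

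Aqp5, a pore of the luminal side of secretory epithelia, was high in both aged-SP libraries. It was at 42.7 and 44.4 CPM in aged-SP replicates 1 and 4, and at 13.8, 1.54 and 1.40 CPM in young-SP replicates 1, 2 and 4. Every aged-SP library lay above every young-SP library, and the young-SP group itself was split, with replicate 1 at 9.36 times the mean of the other two. The fold change was 2.97 (SE 0.98, 95% interval 0.51 to 5.42), with an unadjusted p of 0.0260 and an adjusted p of 0.207 in edgeR. Without young-SP replicate 1 it was 4.87 with an adjusted p of 0.00211, which passed the call as 1 of those 578 genes.

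Aqp8, a pore for water and other small molecules such as ammonia and hydrogen peroxide, had the largest fold change of the tested channel genes. Its count was 721 and 28 in aged-SP replicates 1 and 4, and 4, 7 and 4 in young-SP replicates 1, 2 and 4. As CPM these were 43.6 and 1.79 against 0.250, 0.414 and 0.267, so that the gene was close to silent in the young-SP group and high in only 1 library. Aged-SP replicate 1 was at 24.3 times the next highest library. The fold change was 6.15 (SE 1.38, 95% interval 2.70 to 9.60), with an unadjusted p of 0.00522 and an adjusted p of 0.117 in edgeR and of 0.000714 in DESeq2. Without aged-SP replicate 1 the fold change was 2.49 (adjusted p of 0.271), and without aged-SP replicate 4 it was 7.09 (adjusted p of 0.0151, past the call, as 1 of 49 genes), each time with a lone aged-SP library that was assumed to vary like the young-SP group.

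Aqp9, a pore for glycerol and other solutes that leukocytes and liver cells carry, was low in every library. It was at 2.90 and 2.30 CPM in the aged-SP group and at 2.0, 1.83 and 1.60 CPM in the young-SP group, without overlap. The fold change was 0.52 (SE 0.27), with an adjusted p of 0.360 in edgeR. Leukocyte markers (8 of 8 genes) summed to 987 and 545 CPM against 680, 313 and 418 CPM, with overlap. Cd14 alone gave 676 and 140 CPM of this against 251, 69.5 and 89.1 CPM, and of the 8 genes 4 had a positive and 4 a negative fold change. The part of leukocytes in the level of Aqp9 was not tested.

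The remaining aquaporins were near the floor of the data. Aqp3, typical of basal cells of stratified epithelia, had between 1 and 17 counts per library and was not tested. Aqp4, the water pore of astrocytes and of some epithelia, had between 6 and 26 counts. Its fold change of −0.36 (SE 0.74, adjusted p of 0.831 in edgeR) became positive when aged-SP replicate 4 (0.27) or young-SP replicate 4 (0.11) was left out.

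Per length, Aqp1 made up most of the aquaporin transcripts, with 81.7% and 89.6% of the sum of the 6 genes in the aged-SP libraries and 94.0%, 98.4% and 99.1% in the young-SP libraries. Without Aqp1 the others summed to 53.8 and 28.6 FPKM in the aged-SP group and to 9.29, 2.32 and 1.76 FPKM in the young-SP group. Aqp5 gave most of this remainder in aged-SP replicate 4, whereas in replicate 1 Aqp5 (8.65% of all aquaporin FPKM) and Aqp8 (9.30%) gave similar parts.

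Gland genes did not move as one class, but the gland proteases Prss28 and Prss29 were high in the libraries with high Aqp5. The 7 genes of uterine glands, all measured, summed to 4078 and 2930 CPM in the aged-SP libraries, to 509 CPM in young-SP replicate 1 and to 53.0 and 43.0 CPM in young-SP replicates 2 and 4. In the aged-SP libraries and young-SP replicate 1 nearly all of this came from Prss28 and Prss29, serine proteases secreted by the glands around implantation. Prss29 was at 2458 and 2137 CPM in the aged-SP group and at 385, 2.96 and 11.5 CPM in the young-SP group. Foxa2, the transcription factor that defines gland cells and was singled out after its values were seen, was at 10.6 and 12 CPM against 8.51, 14.1 and 11.6 CPM (fold change −0.02, adjusted p of 0.976 in edgeR). The epithelial marker Krt8 was at 252 ± 65.2 (SD, n = 2) and 280 ± 106 CPM (SD, n = 3). The other gland genes, named here after their values were seen, went both ways. Cxcl15 was at 2.90 and 1.92 CPM against 8.69, 20.2 and 8.14 CPM, and DESeq2 called it and Ttr as lower. Spink1 lay higher in both aged-SP libraries, at 153 and 12.2 CPM against 11.1, 10.8 and 7.74 CPM. Its fold change was 3.07 (adjusted p of 0.184 in edgeR), and like Aqp8 it was high only in aged-SP replicate 1. Lif was at 6.41 and 2.62 CPM against 3.63, 2.25 and 2.40 CPM, with overlap. Aqp8 did not follow the gland sum within the young-SP group, where it was at 0.250 CPM in replicate 1, the lowest of the 3. None of the marker genes was called by edgeR. The part of gland or epithelial content in the differences of Aqp5, Aqp8 and Cftr was not tested.

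**Figure D4:**
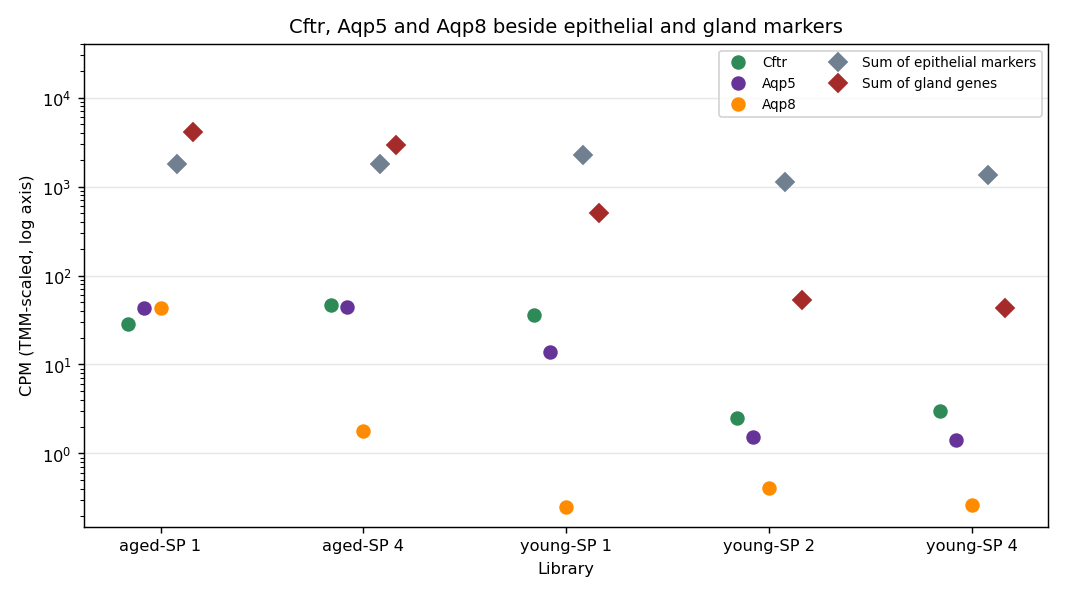
CPM of Cftr, Aqp5 and Aqp8 (circles) and summed CPM of 14 epithelial markers and 7 gland genes (diamonds) in each library, on a log axis. The gland sum and Aqp5 are highest in both aged-SP libraries, intermediate in young-SP replicate 1 and lowest in young-SP replicates 2 and 4. The epithelial sum is 1799 and 1808 CPM in the aged-SP libraries and 2234 CPM in young-SP replicate 1. It is lower in young-SP replicates 2 and 4, at 1112 and 1365 CPM.

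The transport genes that work with these channels gave 0 calls in edgeR. The lists held 65 genes, 63 of which were found and 55 tested, and 6 reached an unadjusted p under 0.05 as higher and 9 as lower, beside the 19.0% of all tested genes that reached it in either direction. The counts of the single lists below have the same background. Their median fold change was 0.10 on the log2 scale. DESeq2 called 3 as higher (Greb1, Spint2 and Fxyd6) and 2 as lower (Fxyd4 and Aqp11), of which Spint2 and Fxyd6 are named here after their values were seen. Without young-SP replicate 1, edgeR called 4 of the genes (Aqp11, Car12, Fxyd4 and Greb1) among 578 over all tested genes, where 25 were called with all libraries. Car12 is likewise named after its values were seen.

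Of the 15 tested partners of Cftr in anion and bicarbonate transport, 1 was higher and 1 lower at an unadjusted p under 0.05. The lower one was Ano1, a calcium-activated chloride channel, at 86.7 ± 9.91 against 122 ± 13.4 CPM (fold change −0.49, adjusted p of 0.151 in edgeR). Car2, a carbonic anhydrase that supplies bicarbonate and the most abundant of this list per length, was at 618 and 258 CPM in the aged-SP group and at 514, 76.0 and 107 CPM in the young-SP group. Its groups overlapped, with young-SP replicate 1 high as for Cftr, and its adjusted p was 0.614.

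Of the 19 tested regulators of ENaC, 2 were higher and 2 lower at that threshold. Nr3c2, the mineralocorticoid receptor through which aldosterone raises ENaC, was at 8.74 ± 0.568 against 5.14 ± 0.300 CPM (fold change 0.77, adjusted p of 0.122 in edgeR). Hsd11b2, the enzyme that shields this receptor from glucocorticoids, was at 205 ± 42.5 against 275 ± 10.9 CPM, with a fold change of −0.42 and an adjusted p of 0.217. Spint2, an inhibitor of the serine proteases that activate ENaC, was at 670 and 275 CPM in the aged-SP group and at 223, 111 and 128 CPM in the young-SP group (fold change 1.62, adjusted p of 0.163). For these genes the receptor and the protease inhibitor lay higher and the enzyme lower in both aged-SP libraries, and none passed the call in edgeR.

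Of the 12 tested genes of the sodium pump and its FXYD subunits, 1 was higher and 5 were lower at that threshold. Fxyd4, a small subunit that tunes the sodium affinity of the pump, had the smallest p of this list, at 22.7 and 23.5 CPM in the aged-SP group against 79.4, 135 and 192 CPM in the young-SP group. Its fold change was −2.55 (SE 0.39), with an adjusted p of 0.0757 in edgeR and 4.67e-10 in DESeq2. Fxyd6, another such subunit, went the other way, at 114 ± 32.9 against 48.3 ± 11.1 CPM (fold change 1.24, adjusted p of 0.105 in edgeR).

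Aqp11, the only other aquaporin that passed the filter and a pore of intracellular membranes, lay lower in both aged-SP libraries. It was at 7.25 and 10.2 CPM against 11.7, 29.9 and 34.8 CPM, without overlap, and its fold change was −1.54 (SE 0.50, adjusted p of 0.200 in edgeR and 0.0194 in DESeq2).

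Among 8 tested receptors and responders to the hormones that govern luminal fluid, 2 were higher and 0 lower at an unadjusted p under 0.05. Greb1, a direct target of estrogen receptor alpha, was at 40.9 and 60.2 CPM in the aged-SP group and at 17.5, 14.8 and 10.6 CPM in the young-SP group. Its fold change was 1.82 (SE 0.26), with an adjusted p of 0.0734 in edgeR and 1.29e-07 in DESeq2. Pgr, the progesterone receptor, was at 202 ± 2.50 against 253 ± 33.2 CPM (fold change −0.32, adjusted p of 0.270 in edgeR).

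**Figure D5:**
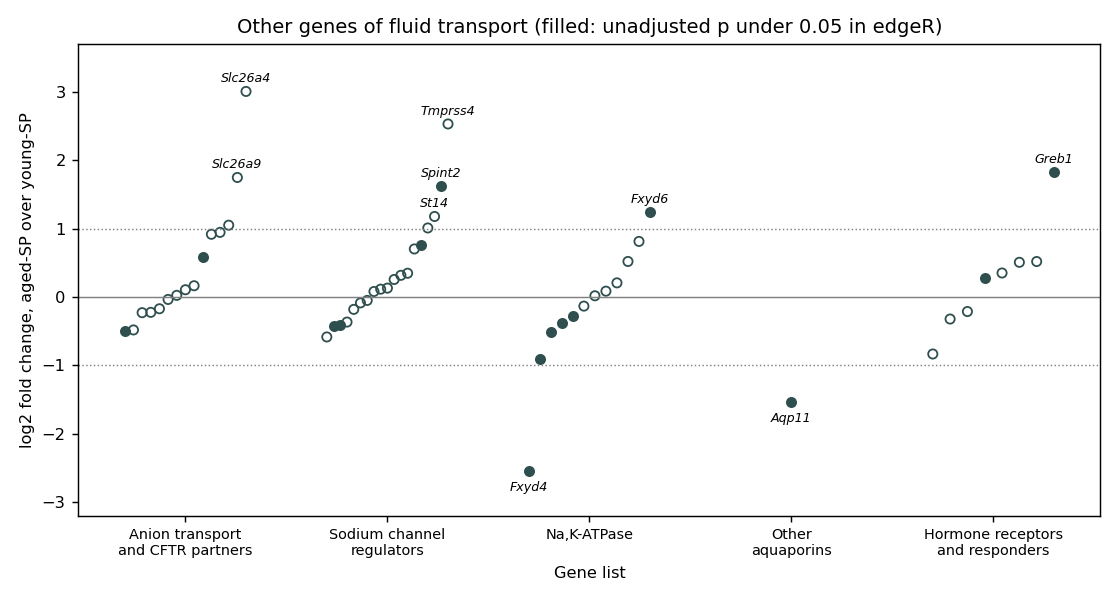
Log2 fold change (aged-SP over young-SP) in edgeR for the 55 tested transport and hormone genes, with 1 point per gene in 5 lists, filled where the unadjusted p was under 0.05. Values scatter around 0 in every list with more than 1 gene, Fxyd4 (−2.55) is the lowest of the 55 and Greb1 (1.82) among the higher ones.

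The genes with the pattern most like that of Aqp8 were Ces2b, Napsa and Pinlyp. Likeness was the root mean square difference of log2 CPM, centred on the mean of each gene, over the 5 libraries and 12528 genes, and it was 0.58 for Ces2b, 0.77 for Napsa and 0.81 for Pinlyp. Ces2b, a carboxylesterase, was at 97.2 and 8.83 CPM in the aged-SP group and at 2.56, 3.13 and 1.87 CPM in the young-SP group. Napsa, an aspartic protease, was at 153 and 15.3 CPM against 5.50, 5.38 and 5.67 CPM. All 3 had their highest level in aged-SP replicate 1, as Aqp8 did, which largely follows from choosing them by likeness over the same libraries. Among the channel genes, Aqp5 was nearest to Aqp8, at a difference of 1.94.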

How the data were processed

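Uterine RNA of 2 aged-SP and 3 young-SP libraries was compared. Per the labels, the authors used a library kit that does not mark strand, with Bowtie2 2.2.3, HISAT2 2.1.0 and HTSeq 0.6.0. The authors deposited unnormalized read counts per gene. The deposited FPKM values are these counts per gene length and library total (largest relative difference 2.33e-07). They were used, without TMM scaling, to compare genes and for the sums, shares and ratios of genes in each library. Log2 fold changes and p-values of the authors' own DESeq2 comparison were not used, and 0 columns of sample values were left unused. A young-SP sample that the study excluded was not analysed here.

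Counts were filtered with filterByExpr, scaled with TMM (factors 0.990 to 1.02) and tested with glmQLFit and glmQLFTest in edgeR 4.0.16 (R 4.3.3). P-values were two-sided and Benjamini-Hochberg adjusted over 17013 genes. CPM values are TMM-scaled, and log2 CPM has a prior count of 2. Intervals from edgeR are at 95%, and the floor of 3 counts covers counting error only. Alternatives were DESeq2 1.42.0, limma-voom 3.58.1, other scalings and filters, a replicate block and each library left out in turn. The tests were checked on simulated counts. Each pair of libraries differed by more than sampling noise (chi-square per degree of freedom 12.4 to 58.5).

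The channel genes and all lists were chosen with earlier results of these data known. Apart from the channel genes, the text names in each transport list the gene of smallest unadjusted p and that of highest mean FPKM, any called gene, the 2 most abundant genes of marker lists, and the 3 genes most like the channel gene of smallest p (mean CPM at least 5). 1 gene that this rule names is not reported here. Other genes are said to be named after their values were seen. Gene positions are those of GENCODE M21 on GRCm38.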

Additional observations from a re-analysis of the deposited data

How the results depend on the processing

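Leaving out each library in turn gave between 0 and 2 called channel genes in edgeR (Aqp8 without aged-SP replicate 4, and Aqp5 and Cftr without young-SP replicate 1) against 0 with all 5, and DESeq2 gave 1 (Aqp8). The other transport genes went from 0 calls to 5 with DESeq2, to 2 without a filter on low counts (Fxyd4 and Greb1) and to between 0 and 4 with each library left out, with the 4 (Aqp11, Car12, Fxyd4 and Greb1) found without young-SP replicate 1. Over all tested genes edgeR called 25, DESeq2 632, edgeR without the filter 203 and edgeR with the replicate block 2. With libraries left out this count ran from 1 (without aged-SP replicate 1) to 578 (without young-SP replicate 1), and it was 49, 3 and 2 without aged-SP replicate 4, young-SP replicate 2 and young-SP replicate 4. DESeq2 size factors within edgeR moved the split of 14 higher and 11 lower calls to 8 and 10. The fold change of Scnn1g ran from −1.46 to 2.31 and that of Aqp4 from −1.51 to 0.27 with libraries left out. The replicate block left 0 channel genes called. Replicates 1 and 4 have the same number in both groups, and the correlations of their deviations were 0.152 and 0.136. With 2 aged-SP libraries the deviations mirror each other, so that these values cannot decide whether libraries were paired. Scnn1g without young-SP replicate 1, and Scnn1g, Aqp4 and Aqp8 at 10 counts or more in every library, failed the filter and gave no value. With 2 against 3 libraries, the low counts of Scnn1g, Aqp3 and Aqp4 limit what could be detected. The cause of these shifts was not tested.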
